A study of Homo sapiens with 18 samples.

Results

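The human mitochondrial genome is a small circle that encodes subunits of the respiratory chain, the RNAs of the mitochondrial ribosome and a full set of tRNAs. Mitochondrially encoded genes were taken as the genes whose name begins with MT-. Of the 37 genes so named, 35 were measured here, 13 protein-coding and 22 tRNA genes, of 57500 genes in the table. Of the 560 rRNA-type genes of GENCODE release 29, MT-RNR1 and MT-RNR2 among them, 0 were in the rows used here. Shares of all TPM below are shares of these rows, without rRNA genes. All 35 symbols and identifiers matched the mitochondrial chromosome of GRCh38 in GENCODE release 29, with 26 genes on the plus and 9 on the minus strand. The study used SNU2535, NCI-H3122 and NCI-H2228, established human lines of non-small cell lung cancer, all labelled WT and known to carry ALK fusions. Cells of each line received 3 µM TRI-611, a molecular glue degrader of the receptor tyrosine kinase ALK, or the solvent DMSO, for 3 h before poly-A RNA was sequenced. That made 6 groups of 3 libraries, 18 in all, and the labels give batches 1 to 3, equal to the replicate number. The labels do not say whether a group's 3 libraries are separate cultures, so each p-value reflects the spread among these libraries alone, part or all of which may be technical.

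Both strands of the circle are transcribed as long RNAs that are cut into single messages at the tRNAs lying between them. The 13 messages encode subunits of complex I (the MT-ND genes), complex III (MT-CYB), complex IV (MT-CO1, MT-CO2 and MT-CO3) and complex V (MT-ATP8 and MT-ATP6). Each works together with many nuclear-encoded subunits. Most of the messages carry short poly-A tails, whereas mature tRNAs do not. A poly-A library thus reads tRNA genes through whichever RNAs reached it. Mature tRNAs, precursors and overlapping message ends cannot be told apart in these values. Nor can fewer mitochondria or cells be told apart from less RNA per cell in bulk RNA.

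The 7 tRNA genes below are shown because they held nearly all tRNA reads and most of the differences described further on. Sequences are the gene strand as DNA, 5′ to 3′, from GENCODE release 29 transcripts on GRCh38, and the capitals mark the anticodon. MT-TF (chrM:577-647, plus strand, phenylalanine) opens one of the long transcripts, MT-TV (chrM:1602-1670, plus, valine) lies between the rRNA genes, and MT-TL1 (chrM:3230-3304, plus, leucine) follows them. MT-TN (chrM:5657-5729, asparagine), MT-TC (chrM:5761-5826, cysteine), MT-TY (chrM:5826-5891, tyrosine) and MT-TP (chrM:15956-16023, proline) are on the minus strand.
MT-TF: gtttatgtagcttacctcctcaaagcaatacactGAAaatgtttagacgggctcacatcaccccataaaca
MT-TV: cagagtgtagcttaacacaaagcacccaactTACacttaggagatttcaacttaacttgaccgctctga
MT-TL1: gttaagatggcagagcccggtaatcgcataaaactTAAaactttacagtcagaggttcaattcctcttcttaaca
MT-TN: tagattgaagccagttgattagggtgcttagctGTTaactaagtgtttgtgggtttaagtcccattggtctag
MT-TC: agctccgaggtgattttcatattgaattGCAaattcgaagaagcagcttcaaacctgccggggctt
MT-TY: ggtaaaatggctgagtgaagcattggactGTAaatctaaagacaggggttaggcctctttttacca
MT-TP: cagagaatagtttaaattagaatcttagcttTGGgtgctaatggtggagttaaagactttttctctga

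The ends of 4 messages are shown because 6 of the 13 protein-coding genes have a length that is not a multiple of 3. Their stop codon is finished only when the poly-A tail is added. In MT-ND1 (chrM:4240-4262) and MT-ND4 (chrM:12116-12137) the capitals mark the bases left after the last whole codon, and in MT-CO1 (chrM:7425-7445) and MT-ND6 (chrM:14149-14169, minus strand) they mark the last codon. In the stretch of MT-ATP8 and MT-ATP6 (chrM:8515-8584, plus strand) the capitals mark the 46 bases that belong to both genes. Reads in those bases, in the 7 bases shared by MT-ND4L and MT-ND4 and in the 3 bases where MT-TI and MT-TQ overlap on opposite strands cannot be assigned to 1 gene with certainty.
MT-ND1: tccagcattccccctcaaaccTA
MT-ND4: atcattaccgggttttcctctT
MT-CO1: cccgtatacataaaatctAGA
MT-ND6: gagattgctcgggggaatAGG
MT-ATP8/MT-ATP6: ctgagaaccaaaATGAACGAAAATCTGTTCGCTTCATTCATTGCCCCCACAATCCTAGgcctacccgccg

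Values are TPM, read density per gene length scaled to a fixed library sum, as the authors deposited them, which sum to 1000000 in every library over the rows used here. For the mitochondrially encoded genes, TPM times gene length was a whole multiple of a single step per library (584 of 584 values above 0, within 0.05 of a whole number). These whole multiples are called reads below; they may be molecules. The 35 genes held 320801 to 698966 reads per library, and the 22 tRNA genes 3765 to 7474 of them. Epithelial markers were present in all lines (EPCAM 117 to 689 TPM, KRT8 538 to 1907 TPM). Some were low: CDH1 lay at 5.56 to 6.36 TPM in NCI-H2228 and NAPSA at 0 to 0.182 TPM in NCI-H3122. The leukocyte marker PTPRC reached at most 0.129 TPM. The fibroblast marker COL1A2 reached at most 0.831 TPM, while COL1A1 stood at 361 to 393 TPM in NCI-H2228, 131 to 164 TPM in SNU2535 and 10.8 to 14.1 TPM in NCI-H3122. The endothelial marker PECAM1 stood at 5.37 to 6.71 TPM in SNU2535 and at most 2.43 TPM in the other lines.

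Mitochondrially encoded genes held between 7.59% and 15.02% of all TPM, and the share with TRI-611 overlapped the share with DMSO in each line. In SNU2535 the share was 8.63%, 8.85% and 9.92% with TRI-611 in batches 1 to 3, against 9.94%, 7.59% and 8.59% with DMSO. The TRI-611 libraries lay inside the DMSO range. In NCI-H3122 it was 11.8%, 10.9% and 15.02% with TRI-611, against 9.56%, 12.6% and 11.3% with DMSO. The highest share of the study, in TRI-611 replicate 3, stood beside a batch (2) in which the DMSO library was higher. In NCI-H2228 it was 10.9%, 11.4% and 10.2% with TRI-611, against 8.23%, 10.5% and 8.49% with DMSO. Here TRI-611 was higher in each of the 3 batches, by 2.63, 0.94 and 1.74 percentage points, but DMSO replicate 2 lay above TRI-611 replicate 3. The mean differences, TRI-611 minus DMSO, were 0.432, 1.40 and 1.77 points in SNU2535, NCI-H3122 and NCI-H2228. The TRI-611 library was above the DMSO library of its batch in 2, 2 and 3 of 3 batches. In SNU2535 the mean difference was -0.1265 points without DMSO replicate 2, 0.0372 points without TRI-611 replicate 3, 0.682 points without TRI-611 replicate 1 and 1.05 points without DMSO replicate 1. In NCI-H3122 it was 0.16 points without TRI-611 replicate 3, 0.601 points without DMSO replicate 1, 2.11 points without DMSO replicate 2 and 2.24 points without TRI-611 replicate 2. These sums over the genes are given without a test.

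**Figure D1:**
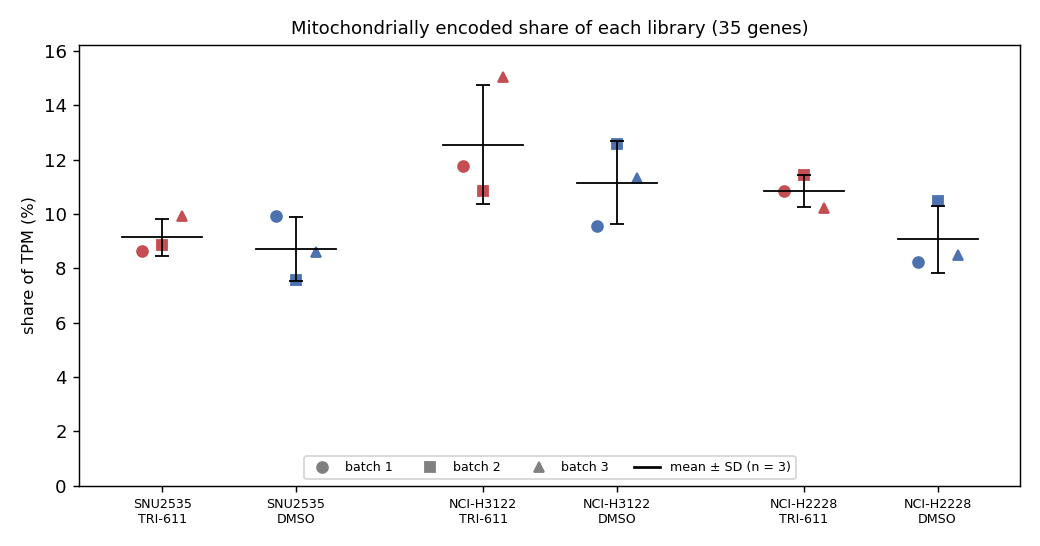
Share of all TPM held by the 35 mitochondrially encoded genes in each library (y axis, percent), by line and treatment. Points are libraries with the batch as symbol, lines and bars the mean ± SD of 3; the TRI-611 and DMSO points overlap in each line, and the highest point is NCI-H3122 TRI-611 replicate 3 at 15.02%.

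The share was made up mostly of messages. Protein-coding genes held 7.95% ± 0.669 of all TPM with TRI-611 and 7.62% ± 1.07 with DMSO in SNU2535 (SD, n = 3 each). In NCI-H3122 they held 11.1% ± 2.01 with TRI-611 and 9.81% ± 1.36 with DMSO. NCI-H2228 had 9.70% ± 0.555 with TRI-611 and 8.03% ± 1.12 with DMSO. The tRNA genes held between 1.04% and 1.47% of TPM as group means. Per length, MT-ATP6 had the highest mean TPM of all genes over the 18 libraries (15229 TPM), and MT-CO1 (13235 TPM) and MT-ATP8 (12096 TPM) came next. MT-CO2 (8973 TPM) and MT-CO3 (8744 TPM), the other subunits of the oxidase that reduces oxygen, ranked 5 and 6. MT-ND2 was the lowest message at 2549 TPM and still ranked 30 among all genes. MT-ND6, the sole message of the minus strand, averaged 5391 TPM, near MT-ND1 at 5375 TPM and MT-ND4 at 5865 TPM.

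The tRNA genes split into 2 sets with no gene between them. The 7 printed above averaged 744 to 4551 TPM and had 108 to 3346 reads in each library, whereas the other 15 averaged 0.383 to 73.7 TPM with 0 to 65 reads. MT-TN was the highest tRNA gene, followed by MT-TL1 (1589 TPM) and MT-TV (1443 TPM). MT-TR was the lowest, listed at 0 in 15 of 18 libraries and at 1 read in the other 3. A count of 0 allows up to 3 reads, or 5.12 to 8.15 TPM of MT-TR depending on the library. Intervals and floors of this kind cover counting error only.

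Levels of the messages varied together between libraries. The median coefficient of variation of a message's TPM within a group lay between 8.07% and 15.6%. Expressed as a share of mitochondrially encoded TPM in the same library, it lay between 2.01% and 5.6%. The share varied less than the TPM in 76 of 78 pairs of gene and group. For the 7 abundant tRNA genes the same medians were 6.36% to 16.9% and 4.71% to 9.13%, with the share less variable in 29 of 42 pairs. The members are therefore not independent of each other, and counts over them below are counts of genes, not of separate observations.

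No message passed the test after TRI-611 in any line (limma on log2(TPM + 1), Benjamini-Hochberg adjusted p under 0.05 over all tested genes). In SNU2535, 12 of 13 messages had a positive log2 difference, with a median of 0.06 against -0.02 over all tested genes. The median was 0.18 in NCI-H3122, with 13 of 13 positive, against 0.05 over all genes. In NCI-H2228 it was 0.31, with 13 of 13 positive, against 0.01 over all genes. These directions turned for 6 messages in SNU2535 and 1 in each of the other lines under quantile normalization, and for MT-ATP8 and MT-ND3 in NCI-H3122 under median-ratio scaling. Leaving out 1 library turned 9 messages in SNU2535, 5 in NCI-H3122 and 0 in NCI-H2228. At an unadjusted p under 0.05 (limma) there were 0, 0 and 8 messages in SNU2535, NCI-H3122 and NCI-H2228. Over all tested genes it was 6317 of 16252 in SNU2535 and 6688 of 15311 in NCI-H3122. The number for NCI-H2228 is not given here. The messages vary together, so the 8 are not separate observations. Among the messages the lowest adjusted p was 0.38, 0.298 and 0.0573 in SNU2535, NCI-H3122 and NCI-H2228 (limma).

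In SNU2535 neither message of complex V passed. MT-ATP6, which builds the proton channel, had 12983, 13826 and 15308 TPM with TRI-611, against 15516, 11190.2 and 12984 TPM with DMSO (log2 difference 0.10, SE 0.122, limma adjusted p = 0.62). MT-ATP8 had 9474, 10214 and 11789.9 TPM with TRI-611, against 12785, 10059 and 10272 TPM with DMSO (log2 difference -0.07, SE 0.116, limma adjusted p = 0.701). Both sets of values overlapped, and DMSO replicate 1 was the highest library of MT-ATP8. Log2 differences of the complex I messages ran between 0.00 (MT-ND2) and 0.18 (MT-ND4L). For complex IV they were 0.15 (MT-CO1), 0.12 (MT-CO2) and 0.06 (MT-CO3), and for MT-CYB, the cytochrome b gene, 0.04.

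In NCI-H3122 the 3 TRI-611 libraries were far apart. MT-CO1, the catalytic subunit of complex IV, had 12693, 11206 and 17178 TPM with TRI-611, against 9778, 12568 and 11490.2 TPM with DMSO (log2 difference 0.26, SE 0.173, limma adjusted p = 0.298). MT-ND4, a proton-pumping subunit of complex I, had 6529.7, 6505 and 9408 TPM with TRI-611, against 5025, 7254 and 6131 TPM with DMSO (log2 difference 0.28, SE 0.191, limma adjusted p = 0.317). In both, TRI-611 replicate 3 was above and TRI-611 replicate 2 inside the DMSO range. The other messages had log2 differences of 0.05 (MT-ND3) to 0.22 (MT-ND5), with 0.18 for MT-ATP6, 0.18 for MT-CO3 and 0.21 for MT-CYB.

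In NCI-H2228, 6 messages had every TRI-611 library above every DMSO library: MT-ATP8, MT-ATP6, MT-ND4L, MT-ND5, MT-ND6 and MT-CYB. MT-ATP8 had 14137, 15807 and 13015 TPM with TRI-611, against 9242, 12144 and 10739 TPM with DMSO (log2 difference 0.42, SE 0.118, limma adjusted p = 0.0816). MT-ND6 had 5570.0, 6223 and 5090.3 TPM with TRI-611, against 3511, 4855 and 4122 TPM with DMSO (log2 difference 0.44, SE 0.135, limma adjusted p = 0.105). In both the nearest libraries of the groups were TRI-611 replicate 3 and DMSO replicate 2. MT-ND4L, the message closest to the threshold, had 2953, 2792 and 2575 TPM with TRI-611, against 1986, 2438 and 1941 TPM with DMSO (log2 difference 0.39, SE 0.0982, limma adjusted p = 0.0573). MT-CYB had 3805, 4059 and 3733 TPM with TRI-611, against 2732, 3569 and 3015 TPM with DMSO (log2 difference 0.32, SE 0.0979, limma adjusted p = 0.0962). MT-ND5 and MT-ATP6 had log2 differences of 0.42 and 0.31. The other 7 overlapped, with 0.31 for MT-ND4, 0.26 for MT-CO1, 0.26 for MT-ND2, 0.21 for MT-ND1, 0.16 for MT-ND3, 0.15 for MT-CO2 and 0.09 for MT-CO3. Counting tRNA genes, 13 of 35 members did not overlap, each with TRI-611 higher. Over all tested genes 31.4% did not overlap, and in 15.2% TRI-611 was the higher group. In SNU2535, 4 members did not overlap, against 43.9% of all tested genes, and in NCI-H3122 it was 1 member, against 48.1%.

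The calls in NCI-H2228 changed with the replicate block and with 1 library left out. For batches 1 to 3, deviations from group means correlated across genes between same-numbered TRI-611 and DMSO libraries at 0.101, 0.0034 and 0.083. A single member, the tRNA gene MT-TG, was called among 35, against 11.2% of all tested genes (4.8% higher and 6.4% lower). With the replicate block, which compares libraries within a batch, 10 members were called, all higher with TRI-611. They were MT-ATP8 (limma adjusted p = 0.025), MT-CYB (0.0305), MT-ND6 (0.0331), MT-ND4L (0.0389), MT-ND2 (0.0397), MT-CO1 (0.0432), MT-ND5 (0.0448), MT-TG (0.00544), MT-TY (0.00967) and MT-TK (0.0111). Without DMSO replicate 2, the DMSO library with the highest mitochondrially encoded share, 15 were called, 11 messages and 4 tRNA genes. Lowest among those messages were MT-ND4L (limma adjusted p = 0.00362) and MT-ATP6 (0.0041). Without DMSO replicate 3 there were 3 calls and without TRI-611 replicate 3 there were 2. The 11.2% belongs to the fit without the block on all 6 libraries. The share of all tested genes called in the other fits is not given here. Whether the members differed from other genes in these rises was not tested.

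**Figure D2:**
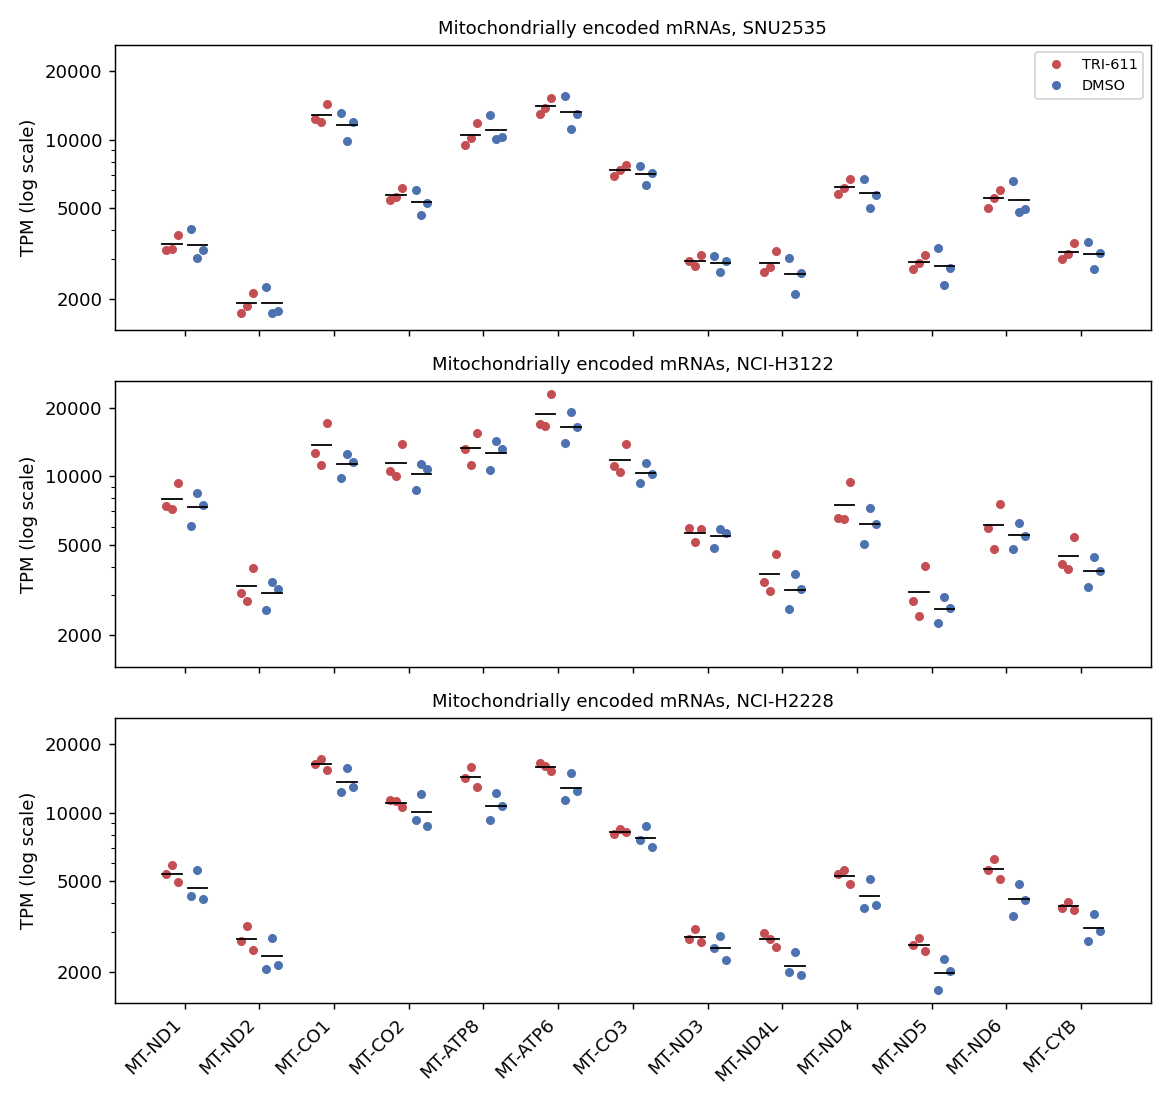
TPM (y axis, log scale) of the 13 mitochondrially encoded messages in chromosome order, 1 panel a line. Points are libraries, TRI-611 left and DMSO right of each gene, and bars are means of 3; in NCI-H2228 the TRI-611 points of 6 messages lie above all DMSO points, and in SNU2535 and NCI-H3122 all messages overlap.

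Called responses were all in tRNA genes. In SNU2535, 4 of 31 tested members passed, 3 higher and 1 lower, against 28.7% of all tested genes (10.7% higher and 18.1% lower). MT-TF had 828, 697 and 757 TPM with TRI-611 (417, 343 and 409 reads), against 563, 469.9 and 496 TPM with DMSO (258, 189 and 262 reads). All 3 TRI-611 libraries lay above all DMSO libraries, in each of the 3 batches. MT-TF rose by 0.58 on the log2 scale (SE 0.084, limma adjusted p = 0.00256), and this call was kept in 16 of 16 alternatives. MT-TC had 1248, 1290.3 and 1254 TPM with TRI-611, against 1090.2, 1209 and 1130.5 TPM with DMSO (log2 difference 0.15, SE 0.0409, limma adjusted p = 0.0316). Its groups were apart by little, and its call was kept in 7 of 16 alternatives, with adjusted p between 0.0552 and 0.102 without TRI-611 replicate 1, 2 or 3 or DMSO replicate 1 or 3.

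The other calls in SNU2535 rested on few reads. MT-TE, the glutamate tRNA gene, had 26, 21 and 21 reads with TRI-611, or 53.1, 43.9 and 39.97 TPM, against 27, 24 and 32 reads, or 60.7, 61.4 and 62.3 TPM, with DMSO. It fell by 0.43 on the log2 scale (SE 0.0943, limma adjusted p = 0.0133), and DMSO was higher in all 3 batches. MT-TT, the threonine tRNA gene, had 10, 5 and 11 reads with TRI-611, or 21.4, 10.9 and 21.9 TPM, against 4, 3 and 2 reads, or 9.40, 8.02 and 4.07 TPM, with DMSO (log2 difference 1.23, SE 0.352, limma adjusted p = 0.0425). With the replicate block its adjusted p was 0.0713 (limma), and it was 0.0534 to 0.131 without TRI-611 replicate 1 or 3 or any 1 DMSO library. In the same blocked fit MT-TK (limma adjusted p = 0.00157) and MT-TS1 (0.0147) passed, for 5 calls in all. MT-TK had 1, 1 and 6 reads with TRI-611, against 0, 0 and 2 reads with DMSO, and it too entered the test only through the group where it was high. The abundant tRNA genes MT-TN, MT-TV and MT-TL1 had log2 differences of 0.18 (SE 0.113), 0.38 (SE 0.176) and 0.05 (SE 0.156). None of these passed. Counts fell to 2 without TRI-611 replicate 1, TRI-611 replicate 3 or DMSO replicate 3.

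In NCI-H3122 and NCI-H2228 the called genes had only a handful of reads. MT-TI, the isoleucine tRNA gene, had 2, 1 and 2 reads with TRI-611 in NCI-H3122, against 0, 1 and 0 reads with DMSO (log2 difference 1.65, SE 0.491, limma adjusted p = 0.0429). It was 1 called member of 34, against 34.1% of all tested genes (20.6% higher), and its adjusted p was 0.158 with the replicate block (limma). It reached 1 TPM in all 3 TRI-611 libraries but in 1 DMSO library, so it entered the test through the group where it was high. The call was kept in 5 of 16 alternatives; it was lost with no filter (adjusted p = 0.0833) and without TRI-611 replicate 1, 2 or 3 or DMSO replicate 1 or 3 (0.0536 to 0.144). In the blocked fit MT-TK, lysine, passed instead (log2 difference -0.48, limma adjusted p = 0.0459). Without TRI-611 replicate 3 or DMSO replicate 3 no member was called. MT-TG, the glycine tRNA gene, had 5, 3 and 3 reads with TRI-611 in NCI-H2228, against 1, 1 and 1 reads with DMSO (log2 difference 1.45, SE 0.154, limma adjusted p = 0.00079). The reads summed over libraries gave a ratio of TRI-611 to DMSO of 5.9 for MT-TI (95% exact binomial interval 0.66 to 279) and 3.65 for MT-TG (0.964 to 20.4). Both intervals include 1. MT-TN, MT-TL1 and MT-TV did not pass in either line, at 0.14, 0.18 and 0.09 on the log2 scale in NCI-H3122. The values in NCI-H2228 were 0.07, 0.21 and 0.14.

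**Figure D3:**
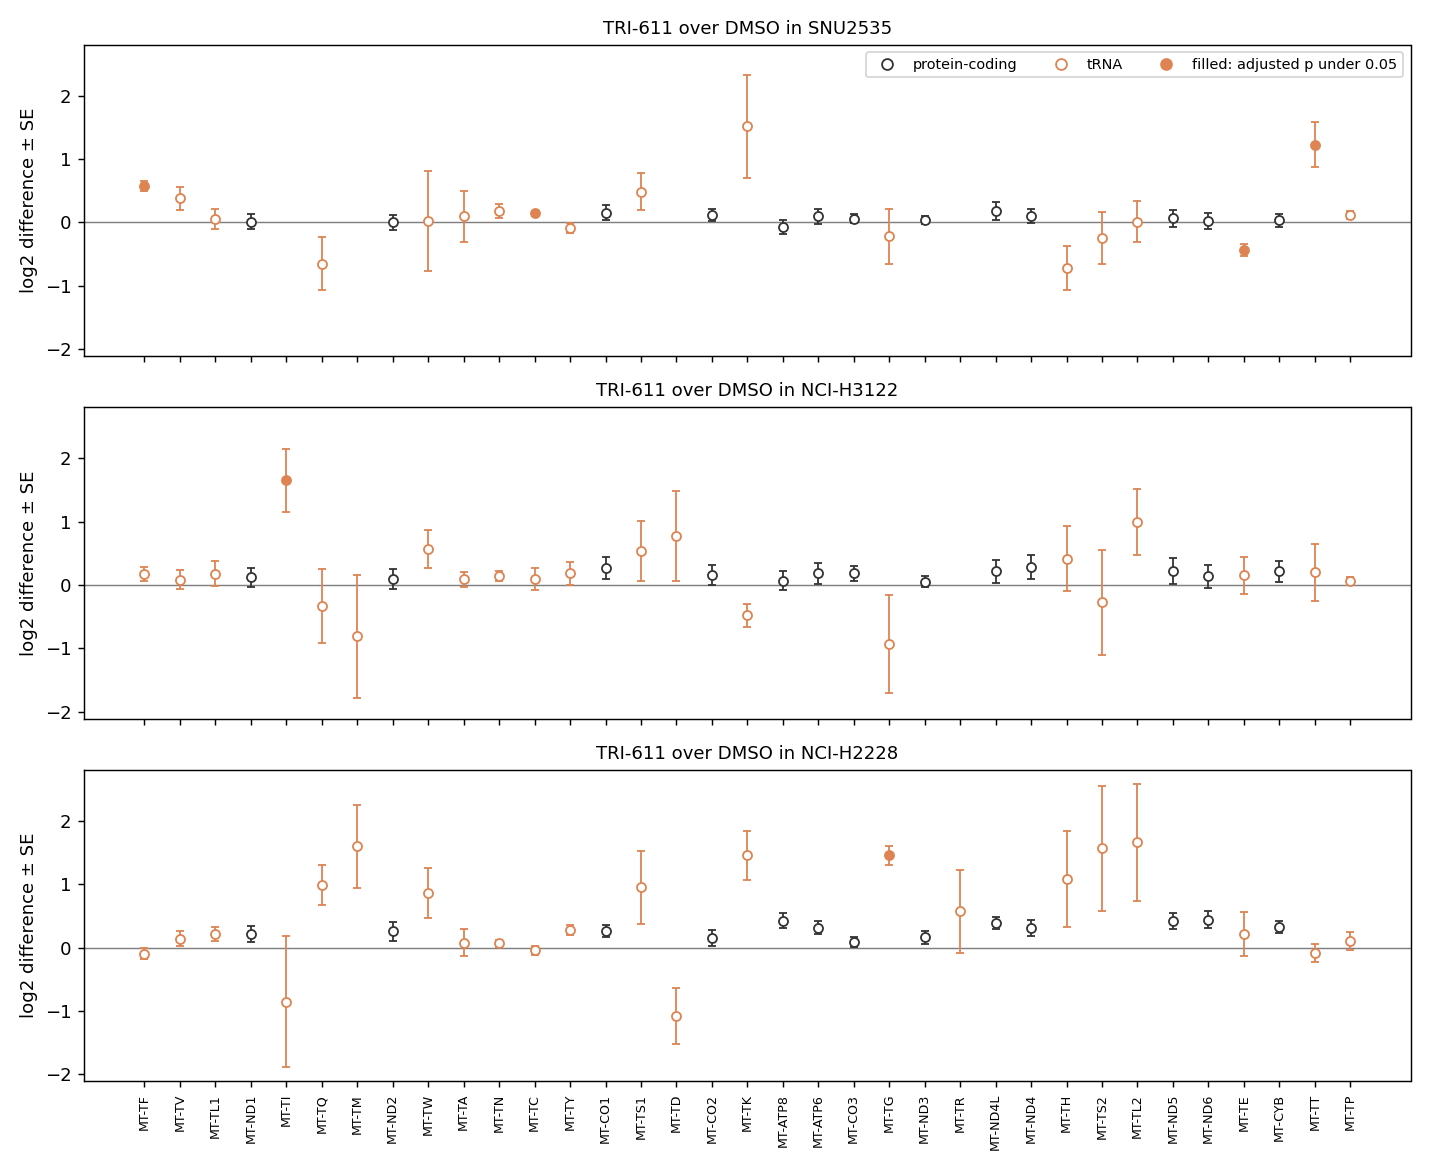
Log2 difference of TRI-611 over DMSO (y axis, ± limma SE) for each tested mitochondrially encoded gene in chromosome order, 1 panel a line. Black marks are messages, orange marks tRNA genes, and filled marks passed at an adjusted p under 0.05; the filled marks are 4 tRNA genes in SNU2535 and 1 in each of the other lines, and messages lie between -0.07 and 0.44.

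The response of MT-TF differed between lines. Its TPM in NCI-H2228 was 477, 494 and 457 with TRI-611, against 469.5, 587 and 479.9 with DMSO (log2 difference -0.10, SE 0.0857, limma adjusted p = 0.537), and the groups overlapped. In NCI-H3122 it was 1161, 1048 and 1294 TPM with TRI-611, against 934, 1176 and 997 TPM with DMSO (log2 difference 0.17, SE 0.108, limma adjusted p = 0.268). The response in SNU2535 was larger than in NCI-H2228 by 0.68 on the log2 scale (SE 0.134, limma interaction, adjusted p = 0.00974), a call kept in 22 of 22 alternatives. It was the 1 call among 31 tested members, against 10.6% of all tested genes. With the replicate block MT-TY (-0.37, limma adjusted p = 0.00784) and MT-TE (-0.65, 0.0403) also passed. Between SNU2535 and NCI-H3122 the MT-TF responses differed by 0.40 (limma adjusted p = 0.0936). There 0 of 31 members passed, against 20.1% of all tested genes, with 1 at an unadjusted p under 0.05 (limma). With the replicate block MT-TK passed (2.00, limma adjusted p = 0.000509), against 0.18 without the block. It had 0 to 6 reads a library in these lines. In SNU2535 it entered the test only through the TRI-611 group, where it was high. Between NCI-H3122 and NCI-H2228, MT-TK passed (log2 difference -1.93, SE 0.472, limma adjusted p = 0.022), 1 of 34 members against 14.3% of all tested genes, on 1 to 6 reads a library. Its adjusted p was 0.0513 to 0.0548 without NCI-H3122 TRI-611 replicate 2 or 3, NCI-H3122 DMSO replicate 1 or NCI-H2228 DMSO replicate 1. MT-TG joined it with the replicate block (-2.38, limma adjusted p = 0.0284). These pairs share the libraries of a line. For SNU2535 minus NCI-H2228, 2 members passed without any 1 SNU2535 TRI-611 library, SNU2535 DMSO replicate 2 or 3, NCI-H2228 TRI-611 replicate 1 or NCI-H2228 DMSO replicate 2, and 3 passed without NCI-H2228 DMSO replicate 3. For SNU2535 minus NCI-H3122, 1 passed without SNU2535 DMSO replicate 3 or NCI-H3122 TRI-611 replicate 2. For NCI-H3122 minus NCI-H2228, 2 passed without NCI-H3122 DMSO replicate 2 or 3. None of the 13 messages differed in response between lines at the adjusted threshold; the lowest adjusted p was 0.13, and 1 message, MT-ATP8, had an unadjusted p under 0.05.

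Within the mitochondrially encoded RNA, some genes took different shares after TRI-611. These shares are descriptions with no test, and a share can fall while the TPM of the gene rises. MT-TF made up 0.960%, 0.788% and 0.763% of mitochondrially encoded TPM with TRI-611 in SNU2535, against 0.567%, 0.619% and 0.578% with DMSO. In NCI-H2228 it made up 0.439%, 0.433% and 0.447% with TRI-611, against 0.570%, 0.561% and 0.565% with DMSO. The groups were apart in both lines, in opposite directions, while in NCI-H3122 they overlapped. MT-ATP8 made up 10.97%, 11.5% and 11.9% with TRI-611 in SNU2535, against 12.9%, 13.3% and 11.96% with DMSO. In NCI-H2228 it made up 13.02%, 13.8% and 12.7% with TRI-611, against 11.2%, 11.6% and 12.6% with DMSO. Here too the groups were apart, lower with TRI-611 in SNU2535 and higher in NCI-H2228. The batch 3 libraries were close, at 11.9% and 11.96% in SNU2535 and 12.7% and 12.6% in NCI-H2228. MT-TF and MT-ATP8 are examples, and other genes were apart as well. MT-ND4L was higher with TRI-611 in both lines, at 3.15% against 2.94% in SNU2535 and 2.56% against 2.34% in NCI-H2228 (means). Among messages alone in NCI-H2228, complex IV took 36.7% ± 0.730 with TRI-611, against 39.2% ± 1.17 with DMSO. Complex V took 31.2% ± 0.216 with TRI-611, against 29.4% ± 1.17 with DMSO (SD, n = 3 each). Neither pair of groups overlapped. In NCI-H3122 complex V took 29.04% ± 0.161 with TRI-611, against 29.7% ± 0.314 with DMSO, without overlap and in the opposite direction. In SNU2535 complex IV took 32.6% ± 0.561 with TRI-611, against 31.5% ± 1.02 with DMSO, and the groups overlapped.

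**Figure D4:**
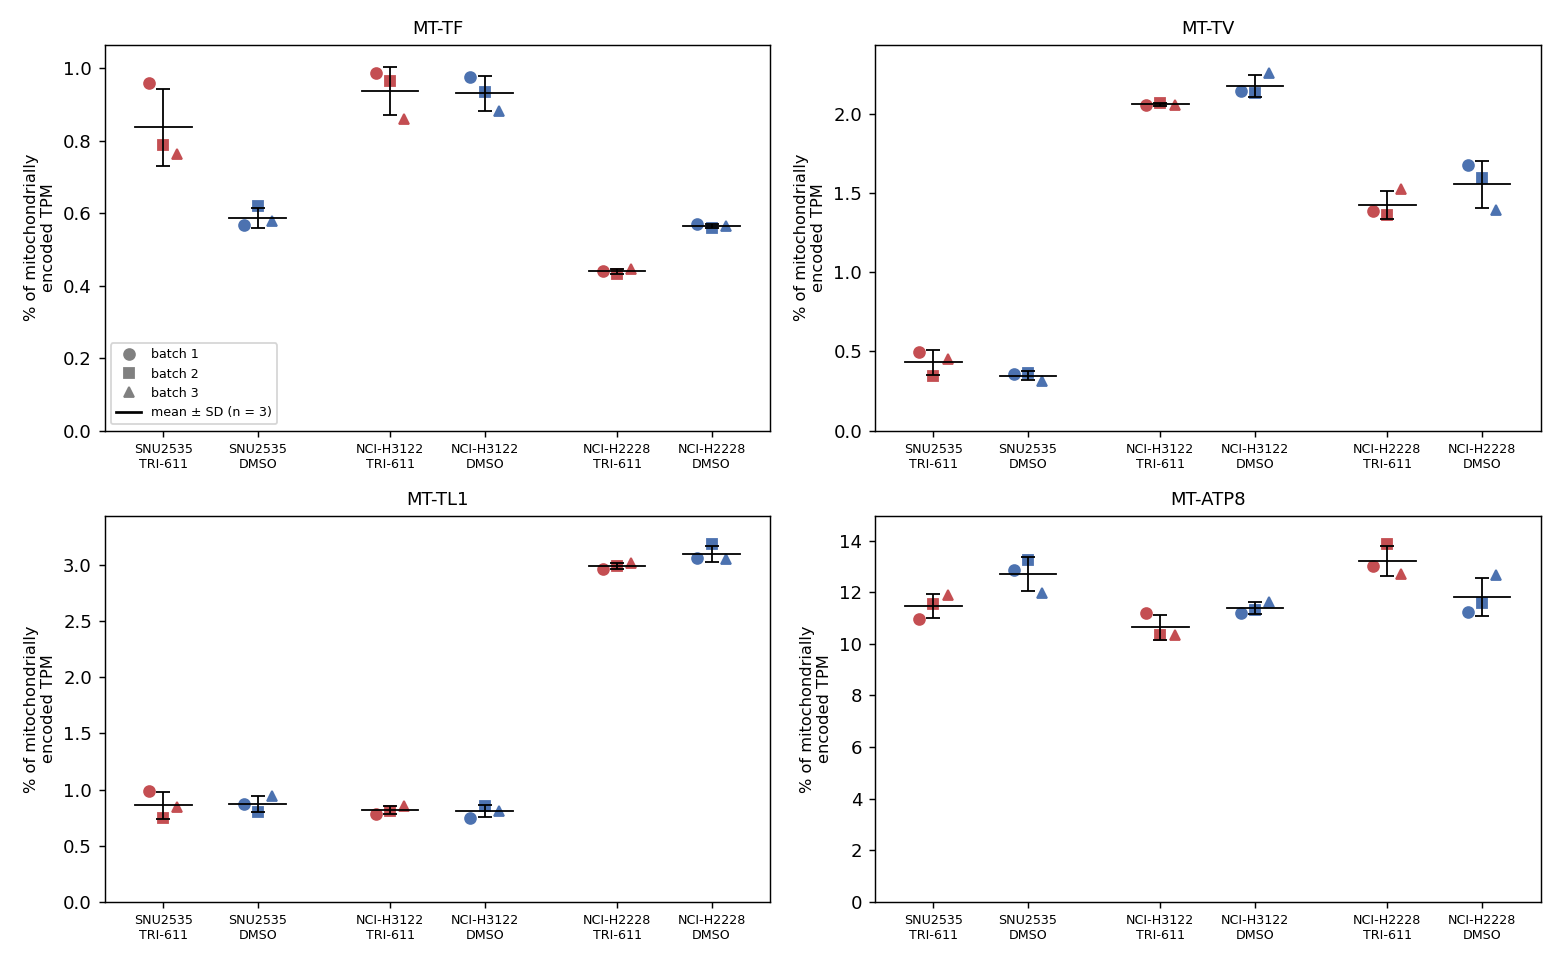
Percent of mitochondrially encoded TPM taken by MT-TF, MT-TV, MT-TL1 and MT-ATP8 (y axes, from 0) in each library, by line and treatment, with the batch as symbol and mean ± SD of 3. MT-TF with TRI-611 lies above DMSO in SNU2535 and below it in NCI-H2228, MT-ATP8 the other way round, and MT-TV and MT-TL1 are set apart mainly by line.

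Levels with DMSO were compared between lines. The whole share was 8.70% ± 1.18 in SNU2535, 11.2% ± 1.52 in NCI-H3122 and 9.07% ± 1.23 in NCI-H2228 (SD, n = 3 each), and each pair of lines overlapped. Gene by gene, 13 of 34 tested members differed between SNU2535 and NCI-H3122, 2 higher and 11 lower in SNU2535, against 76.1% of all tested genes (45.4% higher, 30.7% lower). Between SNU2535 and NCI-H2228, 12 of 34 differed, 6 in each direction, against 75.0% of all genes (32.4% higher, 42.6% lower). Between NCI-H3122 and NCI-H2228, 18 of 34 differed, 15 higher and 3 lower in NCI-H3122, against 79.3% of all genes (30.0% higher, 49.3% lower). In each pair the members' share of calls was below that of all tested genes, a difference that was not tested. The 3 comparisons share DMSO libraries. The median of all tested genes was itself 0.16, -0.11 and -0.25 on the log2 scale in these pairs. Under median-ratio scaling it moved by -0.15 in the first pair and 0.24 in the last.

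Among messages, MT-ND1, MT-CO2, MT-ND3, MT-ND2 and MT-CO3 were lower in SNU2535 than in NCI-H3122. MT-ND1, a core subunit at the quinone site of complex I, had 4067, 3032 and 3265 TPM in SNU2535, against 6037, 8419 and 7498 TPM in NCI-H3122 (log2 difference -1.08, SE 0.160, limma adjusted p = 0.000209). MT-ND3, a small complex I subunit, had 3073, 2611 and 2916 TPM in SNU2535, against 4844, 5849 and 5617 TPM in NCI-H3122 (log2 difference -0.92, SE 0.104, limma adjusted p = 3.19e-05). MT-CO2, which takes electrons from cytochrome c, had 6001, 4649 and 5253 TPM in SNU2535, against 8672, 11258 and 10759.8 TPM in NCI-H3122 (log2 difference -0.95, SE 0.146, limma adjusted p = 0.000278). In these genes the lines did not overlap. MT-ND2 (-0.68) and MT-CO3 (-0.55) also passed. Under quantile normalization MT-ND2 did not pass (-0.32, limma adjusted p = 0.0704) and MT-CO3 passed in the opposite direction (0.12, adjusted p = 0.0188). The other 8 messages did not pass, with log2 differences of -0.32 (MT-ATP6) to 0.09 (MT-ND5).

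MT-CO2 was also lower in SNU2535 than in NCI-H2228, which had 9307, 12109 and 8759 TPM (log2 difference -0.92, SE 0.146, limma adjusted p = 0.000355). MT-CO1, MT-CO3, MT-ATP8, MT-ATP6, MT-ND2, MT-ND3, MT-ND4L and MT-CYB did not pass in that pair, at -0.29 (MT-ND2) to 0.27 (MT-ND4L). MT-ND1 (-0.44, limma adjusted p = 0.034) passed as lower, but with the replicate block its adjusted p was 0.0509, under median-ratio scaling it was 0.117, and it was 0.0902 to 0.116 without SNU2535 replicate 2 or 3 or NCI-H2228 replicate 2. MT-ND4 (0.44) and MT-ND6 (0.39) passed as higher in SNU2535 and were at 0.051 and 0.0703 with the block (limma adjusted p). Without SNU2535 or NCI-H2228 replicate 1 or 3 neither passed, at adjusted p 0.0521 to 0.162. MT-ND6 was kept in 8 of 19 alternatives. It was at 0.20 on the log2 scale under quantile normalization (limma adjusted p = 0.186), and its adjusted p was 0.0527 to 0.0823 with no filter, the filter on mean TPM, plain empirical Bayes, rescaling without mitochondrially encoded TPM or without NCI-H3122 replicate 3. MT-ND5 (0.49, limma adjusted p = 0.0206) was at 0.0735 and 0.0747 without replicate 1 of SNU2535 or NCI-H2228.

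Between NCI-H3122 and NCI-H2228, 8 messages were higher in NCI-H3122. MT-ND3 had 4844, 5849 and 5617 TPM in NCI-H3122, against 2528, 2881 and 2238 TPM in NCI-H2228 (log2 difference 1.10, SE 0.104, limma adjusted p = 8.43e-06). The lines were far apart, and its call was kept in 19 of 19 alternatives. MT-ND1 (0.65), MT-ND4L (0.57) and MT-CO3 (0.41) passed. Under quantile normalization MT-ND1 and MT-ND4L did not pass (limma adjusted p = 0.613 and 0.235), and MT-CO3 passed in the opposite direction (-0.17, adjusted p = 0.00321). MT-ND4 (0.52), MT-ND5 (0.40), MT-ND6 (0.40) and MT-ND2 (0.39) overlapped between lines and turned direction under quantile normalization. With the replicate block MT-ND5 (limma adjusted p = 0.0742), MT-ND6 (0.0596) and MT-ND2 (0.0614) did not pass. Without 1 of NCI-H3122 replicates 2 and 3 or NCI-H2228 replicates 1 and 3, these 4 were at adjusted p 0.0549 to 0.149, except MT-ND4 without NCI-H3122 replicate 3, which passed. MT-ND2 was also at 0.0508 and 0.054 without SNU2535 replicate 2 or 3, and MT-ND5 at 0.0582 without SNU2535 replicate 3. MT-CO1 (-0.27), MT-CO2 (0.03), MT-ATP8 (0.24), MT-ATP6 (0.35) and MT-CYB (0.31) did not pass.

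The order of the messages with DMSO was similar but not the same in the 3 lines. MT-ATP6 was highest in SNU2535 (13230.0 ± 2173 TPM, SD, n = 3) and NCI-H3122 (16494 ± 2546 TPM). In NCI-H2228 MT-CO1 (13636 ± 1774 TPM) stood beside MT-ATP6 (12886 ± 1841 TPM), within their spread. MT-CO2 was below MT-CO3 in SNU2535 (5301 ± 677 against 7051 ± 657 TPM) and above it in NCI-H2228 (10058 ± 1797 against 7759.5 ± 857 TPM). In NCI-H3122 these 2 were within their spread (10230.1 ± 1372 and 10323 ± 1034 TPM). Complex IV took 31.5% ± 1.02 of message TPM in SNU2535, 32.5% ± 0.690 in NCI-H3122 and 39.2% ± 1.17 in NCI-H2228 (SD, n = 3 each). Complex I took 32.6% ± 0.552, 33.8% ± 0.319 and 27.5% ± 0.329 in the same order. NCI-H2228 overlapped neither of the other lines in either share.

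MT-TV, whose tRNA is also a structural part of the human mitochondrial ribosome, had 357, 276 and 269 TPM in SNU2535, against 2048, 2683 and 2554 TPM in NCI-H3122 (log2 difference -3.01, SE 0.157, limma adjusted p = 1.29e-07). In NCI-H2228 it had 1383, 1669 and 1180.5 TPM. SNU2535 was below both lines without overlap (against NCI-H2228, log2 difference -2.22, SE 0.157, limma adjusted p = 1.23e-06), and both calls were kept in 19 of 19 alternatives. NCI-H3122 was in turn above NCI-H2228 (log2 difference 0.79, SE 0.157, limma adjusted p = 0.00135), though not under quantile normalization (adjusted p = 0.056). As a share of mitochondrially encoded TPM with DMSO, MT-TV took 0.346% ± 0.0283 in SNU2535, 2.18% ± 0.0697 in NCI-H3122 and 1.55% ± 0.149 in NCI-H2228 (SD, n = 3 each).

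MT-TL1 set NCI-H2228 apart from the other lines. It had 864, 607 and 812 TPM in SNU2535 and 716, 1078 and 919 TPM in NCI-H3122, against 2520.1, 3335 and 2593 TPM in NCI-H2228. SNU2535 (log2 difference -1.89, SE 0.183, limma adjusted p = 1.11e-05) and NCI-H3122 (log2 difference -1.65, SE 0.183, limma adjusted p = 2.57e-05) were both lower than NCI-H2228, in 19 of 19 alternatives, and did not differ from each other at the threshold (log2 difference -0.24, SE 0.183, limma adjusted p = 0.251). The gene holds the site that the termination factor MTERF1 is known to bind. MT-TF was lower in SNU2535 (563, 469.9 and 496 TPM) than in NCI-H3122 (934, 1176 and 997 TPM; log2 difference -1.02, SE 0.112, limma adjusted p = 2.69e-05). It was higher in NCI-H3122 than in NCI-H2228 (log2 difference 1.01, SE 0.112, limma adjusted p = 2.51e-05), and SNU2535 and NCI-H2228 were at -0.004. The 3 plus-strand tRNA genes followed different orders of the lines.

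Of the abundant minus-strand tRNA genes, MT-TY and MT-TN had their highest mean in SNU2535 and MT-TC and MT-TP in NCI-H3122. MT-TY had 2201, 1768 and 2049 TPM in SNU2535, against 627, 763 and 654 TPM in NCI-H2228 (log2 difference 1.56, SE 0.144, limma adjusted p = 8.18e-06), without overlap and in 19 of 19 alternatives. In NCI-H3122 it had 1198, 1739 and 1632 TPM, above NCI-H2228 (log2 difference 1.15, SE 0.144, limma adjusted p = 6.14e-05). Its call between SNU2535 and NCI-H3122 (0.41, limma adjusted p = 0.0276) ended under median-ratio scaling (0.252) and without SNU2535 replicate 1 (0.0934) or 3 (0.0701) or NCI-H3122 replicate 1 (0.0684). MT-TN had 5512, 4200.2 and 5451 TPM in SNU2535, against 3285, 3399.9 and 2999 TPM in NCI-H2228 (log2 difference 0.64, SE 0.105, limma adjusted p = 0.000444). NCI-H3122 was above NCI-H2228 as well (0.55), but at -0.14 under quantile normalization. MT-TC was higher than in NCI-H2228 in both SNU2535 (0.48) and NCI-H3122 (0.48). MT-TP was highest in NCI-H3122, with 1309.9, 1561 and 1456 TPM, against 639, 868 and 589 TPM in NCI-H2228 (log2 difference 1.06, SE 0.140, limma adjusted p = 8.47e-05), and lower in SNU2535 than in NCI-H3122 (-0.84). MT-TE was higher in NCI-H3122 than in NCI-H2228 (0.81) and lower in SNU2535 than in NCI-H3122 (-0.65).

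Together the 9 minus-strand genes took 16.8% ± 0.249 of mitochondrially encoded TPM with DMSO in SNU2535, 13.02% ± 0.314 in NCI-H3122 and 10.7% ± 0.332 in NCI-H2228 (SD, n = 3 each). No pair of lines overlapped. With TRI-611 the shares were 16.8% ± 0.578, 12.8% ± 0.398 and 10.6% ± 0.265 in the same order, and each overlapped its DMSO group. The strand setting of the counting is not given in the sources used here, so reads of a minus-strand gene and of the opposite transcript may be mixed.

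The remaining calls between lines were in tRNA genes with 0 to 65 reads a library. Between SNU2535 and NCI-H3122 they were MT-TA (-0.996), MT-TK (-1.65) and MT-TG (1.61). MT-TT was lower in SNU2535 (-1.54) and in NCI-H3122 (-1.03) than in NCI-H2228, and so was MT-TI (-1.98 and -2.05). MT-TI had 1 to 6 reads in NCI-H2228 and 0 to 1 in each of the other lines. It thus entered the test only through the line where it was high. Of these remaining calls, only MT-TA and the MT-TT difference of SNU2535 passed whichever library was left out. With the replicate block MT-TT did not pass between NCI-H3122 and NCI-H2228 (limma adjusted p = 0.059), while MT-TS1, MT-TK, MT-TG and MT-TA each passed in 1 further pair (0.0243 to 0.0434).

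**Figure D5:**
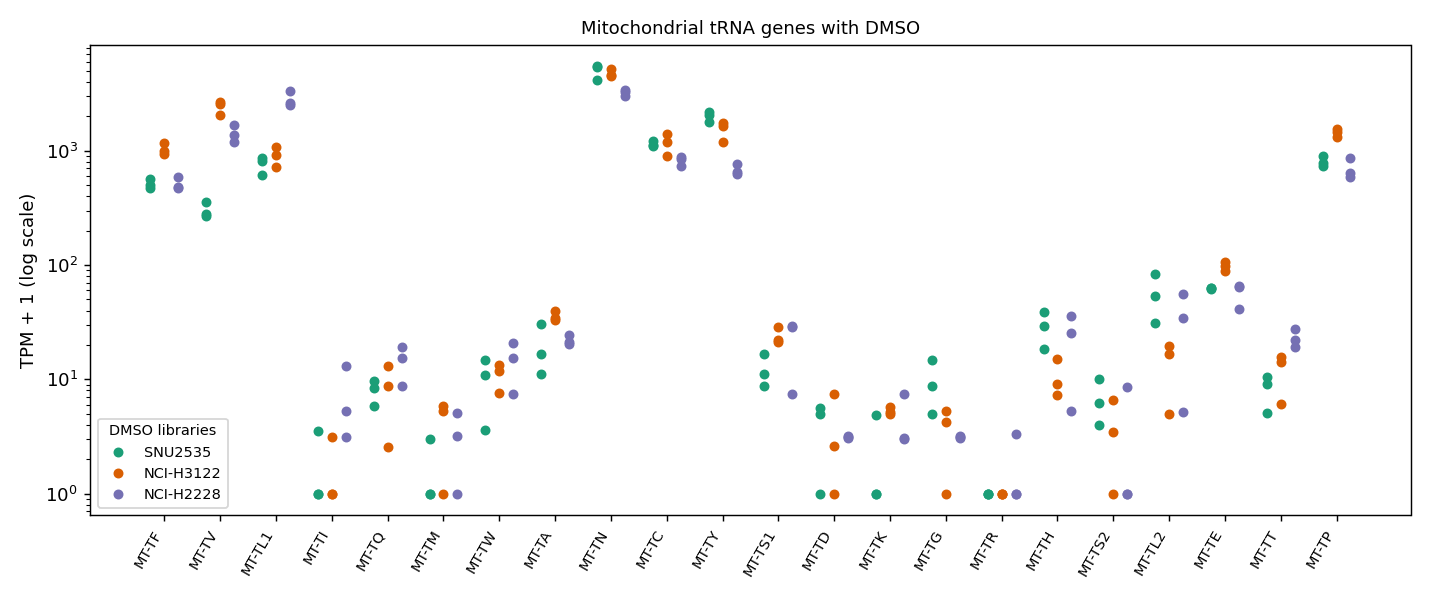
TPM + 1 (y axis, log scale) of the 22 mitochondrial tRNA genes in the 9 DMSO libraries, in chromosome order, with points coloured by line. The 7 genes with 108 or more reads a library stand apart from the 15 others; MT-TV is lowest in SNU2535, MT-TL1 highest in NCI-H2228 and MT-TY lowest in NCI-H2228.

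Nuclear genes that act on mitochondrial DNA and RNA were called in all 3 lines, most often as lower in SNU2535. The nuclear lists were drawn up with earlier results of these data known. Of 18 genes for transcription and maintenance of mitochondrial DNA, 0 rose and 7 fell in SNU2535. In NCI-H3122, 1 rose and 6 fell, while NCI-H2228 had 1 of each. That is 38.9%, 38.9% and 11.1% of the list called, against 28.7%, 34.1% and 11.2% of all tested genes in the same order of lines. The median log2 differences were -0.15, 0.01 and 0.00, against -0.02, 0.05 and 0.01 over all tested genes. TWNK, the helicase of mitochondrial DNA replication, had 9.93, 12.5 and 9.85 TPM with TRI-611 in SNU2535, against 23.9, 28.8 and 23.5 TPM with DMSO (log2 change -1.17, SE 0.111, limma adjusted p = 0.000235). TWNK also fell in NCI-H3122 (-0.32) and NCI-H2228 (-0.33). RNASEH1, which removes RNA primers, fell in SNU2535 (log2 change -0.45, SE 0.0726, limma adjusted p = 0.00286) and NCI-H3122 (-0.25). In NCI-H3122 the termination-factor family members MTERF3 (log2 change -0.45, SE 0.0593, limma adjusted p = 0.000903) and MTERF4 (log2 change 0.46, SE 0.0592, limma adjusted p = 0.000837) moved in opposite directions, and MTERF3 also fell in SNU2535 (-0.36). MGME1, a mitochondrial exonuclease, rose in NCI-H2228 (log2 change 0.27, SE 0.0570, limma adjusted p = 0.0188).

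Of 37 genes that process or stabilise mitochondrial RNA, 0 rose and 17 fell in SNU2535. In NCI-H3122, 7 rose and 10 fell, while in NCI-H2228 none rose and 4 fell. That is 45.9%, 45.9% and 10.8% of the list called, against 28.7%, 34.1% and 11.2% of all tested genes. Over all tested genes, 18.1% fell in SNU2535, 13.4% in NCI-H3122 and 6.4% in NCI-H2228. PUS1, a pseudouridine synthase of tRNA, had 6.10, 6.02 and 5.43 TPM with TRI-611 in SNU2535, against 11.6, 11.2 and 12.8 TPM with DMSO (log2 change -0.91, SE 0.0778, limma adjusted p = 0.000127). PNPT1, the exonuclease of mitochondrial RNA decay, fell in SNU2535 (log2 change -0.60, SE 0.0906, limma adjusted p = 0.00208), NCI-H3122 (-0.32) and NCI-H2228 (log2 change -0.41, SE 0.0646, limma adjusted p = 0.0051). TRMT10C, a subunit of the enzyme that cuts the 5′ end of mitochondrial tRNAs, fell in NCI-H3122 (log2 change -0.55, SE 0.0430, limma adjusted p = 7.19e-05), and also in SNU2535 (-0.58) and NCI-H2228 (-0.28). PDE12, which shortens mitochondrial poly-A tails, fell in NCI-H2228 (log2 change -0.38, SE 0.0722, limma adjusted p = 0.0118), and also in SNU2535 (-0.48) and NCI-H3122 (-0.42). PUS1 fell in the other lines as well (-0.48 in NCI-H3122, -0.25 in NCI-H2228).

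Among regulators of mitochondrial biogenesis, 1 rose and 4 fell of 7 tested in SNU2535, 2 rose and 3 fell of 8 in NCI-H3122, and 0 rose and 3 fell of 8 in NCI-H2228. That is 71.4%, 62.5% and 37.5% of those tested, against 28.7%, 34.1% and 11.2% of all tested genes. PPRC1, a coactivator of the PGC-1 family, had 17.7, 21.6 and 19.5 TPM with TRI-611 in SNU2535, against 60.2, 61.3 and 63.8 TPM with DMSO (log2 change -1.61, SE 0.0706, limma adjusted p = 6.31e-06). It fell by less in NCI-H3122 (-0.34) and NCI-H2228 (-0.57), a difference given here without its own test. PPARGC1B, of the same family, fell in NCI-H3122 (log2 change -0.37, SE 0.0921, limma adjusted p = 0.0171) and NCI-H2228 (log2 change -0.69, SE 0.115, limma adjusted p = 0.00691). ESRRA, their nuclear receptor partner, fell in SNU2535 (log2 change -0.50, SE 0.0397, limma adjusted p = 9.09e-05), NCI-H3122 (-0.26) and NCI-H2228 (-0.21), and GABPB2, a subunit of a nuclear respiratory factor, rose in NCI-H3122 (log2 change 0.38, SE 0.109, limma adjusted p = 0.034).

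Nuclear-encoded subunits of the respiratory chain had small median differences. Of 76, 15 rose and 2 fell in SNU2535. In NCI-H3122, 5 rose and 1 fell, while in NCI-H2228 none rose and 3 fell. That is 22.4%, 7.89% and 3.95% called, against 28.7%, 34.1% and 11.2% of all tested genes. By direction, 10.7% of all tested genes rose and 18.1% fell in SNU2535. In NCI-H3122 20.6% rose and 13.4% fell, and in NCI-H2228 4.8% rose and 6.4% fell. The medians of the list were 0.08, 0.03 and 0.00 on the log2 scale, against -0.02, 0.05 and 0.01 over all tested genes. The complex I genes NDUFB3 (log2 change 0.25, SE 0.0533, limma adjusted p = 0.0108) and NDUFV3 (log2 change -0.35, SE 0.0469, limma adjusted p = 0.00122) had the largest called changes in SNU2535. SDHA of complex II rose in NCI-H3122 (log2 change 0.15, SE 0.0400, limma adjusted p = 0.0234). UQCRFS1 of complex III fell in NCI-H3122 (log2 change -0.15, SE 0.0428, limma adjusted p = 0.0318) and NCI-H2228 (log2 change -0.30, SE 0.0444, limma adjusted p = 0.00405), and CYC1 of complex III fell in NCI-H2228 (log2 change -0.19, SE 0.0339, limma adjusted p = 0.0101) and SNU2535 (-0.16). The subunit count in SNU2535 was 6 to 11 without any 1 TRI-611 library or DMSO replicate 1 or 3. In NCI-H3122 it was 1 to 3 without any 1 library except TRI-611 replicate 3, 0 in the blocked fit, 10 with median-ratio scaling and 17 when TPM was rescaled without the mitochondrially encoded genes. The count for RNA processing was 11 in SNU2535 without TRI-611 replicate 1 or DMSO replicate 3, and 9 to 11 in NCI-H3122 without TRI-611 replicate 2 or DMSO replicate 2 or 3 (10 with the block). In NCI-H2228 it was 2 without TRI-611 replicate 3 or DMSO replicate 2 or 3. The regulator count in NCI-H3122 was 2 to 3 without those same libraries of NCI-H3122 and 3 with the block. The count for DNA genes in NCI-H2228 was 1 without TRI-611 replicate 1 or 3 or DMSO replicate 2.

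Nuclear copies of mitochondrial DNA can take or give reads because their sequence is near that of the source. Of 405 such rows, 102 were above 0 in a library, and together they held 0.0887% to 0.163% of TPM. MTATP6P1 was the highest at 569 TPM on average (436 to 816 TPM), followed by MTCO3P12 (141 TPM) and MTCO1P12 (118 TPM). These 3 lie together on chromosome 1 of GRCh38. How the authors' counting shared reads between copies and source is not given in the sources used here, so MT-ATP6, MT-CO3 and MT-CO1 are uncertain to that extent. Other messages with copies above 0, among them MT-CO2, MT-ATP8 and MT-ND1, are uncertain in the same way.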

How the data were processed

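Poly-A RNA of 18 libraries was sequenced, per the labels' protocols, with a kit that adds molecular identifiers. Tools listed in the submitters' processing notes are STAR 2.5.2b, fastp 0.23.1, DESeq2, and featureCounts of Subread 1.5.2, with the build GRCh38. The sources used here do not state the annotation, the strand setting or the handling of the identifiers. TPM values were used as the authors deposited them. They hold no library totals; reads per gene were recovered from steps of TPM times length, and their number limits precision for tRNA genes. GENCODE release 29 supplied positions, lengths and sequences.

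TPM was transformed to log2(TPM + 1), which understates changes of low genes. Genes at 1 TPM or more in at least 3 libraries of a fit were tested with limma 3.58.1 (R 4.3.3; trend, robust, two-sided) on the 6 libraries of a line, the 9 DMSO libraries, or the 12 of a pair of lines for differences in response, and called at a Benjamini-Hochberg adjusted p under 0.05 over all tested genes. Steps were tested on simulated data. The labels' batch pairs libraries, and the fit with the replicate block was an alternative. For batches 1 to 3, deviations from the group means correlated across genes between the TRI-611 and DMSO library at -0.0228, 0.0437 and 0.0097 (SNU2535). The same correlations were -0.0865, -0.029 and 0.0152 for NCI-H3122. For NCI-H2228 they were 0.101, 0.0034 and 0.083. Other alternatives were pseudocounts of 0.1 and 5, other filters, rescaling without the mitochondrially encoded genes, median-ratio scaling, quantile normalization, plain empirical Bayes, a fit of all 18 libraries and leaving out each library.

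Members, lists and tests were chosen with earlier results of these data known. The text names every message, called tRNA genes and the 3 highest tRNA genes, per nuclear list and line the 2 called genes with the largest change, and the 3 highest nuclear copies. Other tRNA genes were named after their values were seen.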

Additional observations from a re-analysis of the deposited data

Results flagged for a closer look

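The response of MT-TF in SNU2535 exceeded that in NCI-H2228 by 0.676 on the log2 scale in limma's interaction test (adjusted p = 0.00974). For MT-TK the response in NCI-H3122 minus that in NCI-H2228 was -1.93 (limma adjusted p = 0.022), on 1 to 6 reads a library.

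Some shares of mitochondrially encoded RNA are listed where every batch of 1 line moved one way and every batch of another moved the opposite way. None of these differences was tested. Only summed shares and those of MT-TF, MT-TV, MT-TL1, MT-TN, MT-ATP8 and MT-CO2 were searched, so the list is not complete. Outside that set, MT-CYB met the rule, at -0.099 points in SNU2535, 0.119 in NCI-H3122 and 0.143 in NCI-H2228. So did MT-TK and MT-TI, on 0 to 6 reads a library. MT-TF as a percent of mitochondrially encoded TPM, TRI-611 minus DMSO, was 0.249 points in SNU2535 and -0.126 points in NCI-H2228. MT-ATP8 was at -1.23 points in SNU2535 and 1.37 points in NCI-H2228. MT-CO2 was at 0.172 points in SNU2535 and -0.842 points in NCI-H2228. Its share fell in NCI-H2228 although its mean TPM was higher with TRI-611 there (11065 against 10058 TPM with DMSO). As percents of message TPM, complex III was at -0.088 points in SNU2535, 0.124 points in NCI-H3122 and 0.116 points in NCI-H2228, and complex V at -0.693 points in NCI-H3122 and 1.75 points in NCI-H2228.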

How the results depend on the processing

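The number of members called after TRI-611 was small and moved with the processing; the cause was not tested except where noted. In SNU2535 it was 4, and 2 with no filter, with plain empirical Bayes and in the fit of all 18 libraries. In NCI-H3122 it was 1, and 0 in those 3 settings and with a pseudocount of 0.1. In NCI-H2228 it was 1, against 10 with the replicate block, 5 under quantile normalization and 0 in the fit of all 18 libraries. Leaving out a library gave 2 to 4, 0 to 1 and 1 to 15 in the same order. Calls over all tested genes moved too in SNU2535, from 1731 higher and 2941 lower of 16252. They were 1245 and 2302 of 32185 with no filter, 1428 and 2636 with plain empirical Bayes, and 1965 and 3267 in the fit of all 18 libraries. For the other counts here they are not given, so a change of members cannot be told from a change of the whole fit. For differences in response the counts of members were 0, 1 and 1 (SNU2535 minus NCI-H3122, SNU2535 minus NCI-H2228, NCI-H3122 minus NCI-H2228). With the block they were 1, 3 and 2. Quantile normalization gave 2 for the second, a pseudocount of 5 gave 2 and the fit of all libraries 0 for the third, and leaving out a library gave 0 to 1, 1 to 3 and 0 to 2. Nuclear lists in NCI-H3122 had 10 (RNA processing), 3 (regulators) and 0 (respiratory subunits) calls with the block, against 17, 5 and 6. The subunit count there was 17 after rescaling and 10 under median-ratio scaling, and in NCI-H2228 it was 5 after rescaling, against 3. Leaving out a library gave 11 to 15 (RNA processing) and 6 to 15 (subunits) in SNU2535, 9 to 14, 2 to 5 (regulators) and 1 to 9 in NCI-H3122, and 1 to 2 (DNA genes) and 2 to 4 (RNA processing) in NCI-H2228. Of the called members, 1 of 4 in SNU2535 passed in every alternative run, and neither the call in NCI-H3122 nor that in NCI-H2228 did. Between DMSO groups, 7 of 13, 7 of 12 and 7 of 18 did (SNU2535 over NCI-H3122, SNU2535 over NCI-H2228, NCI-H3122 over NCI-H2228). The block changed the other counts of calls by less than 1.5 times.

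Uncalled messages near 0 changed sign, and so did 7 called differences between lines. Under quantile normalization in SNU2535, MT-ND1 was at -0.0757, MT-ND2 at -0.0653, MT-ATP6 at -0.083, MT-ND4 at -0.0315, MT-ND6 at -0.0497 and MT-CYB at -0.0128. MT-CO2 was at -0.0178 in NCI-H3122 and MT-CO1 at -0.0208 in NCI-H2228. Median-ratio scaling put MT-ATP8 at -0.0054 and MT-ND3 at -0.0204 in NCI-H3122. Between DMSO groups, quantile normalization put MT-CO3 at 0.119 for SNU2535 over NCI-H3122 (called the other way, limma adjusted p = 0.0188). For NCI-H3122 over NCI-H2228 it gave MT-ND2 -0.068, MT-TN -0.144, MT-CO3 -0.166 (called the other way, adjusted p = 0.00321), MT-ND4 -0.0171, MT-ND5 -0.0075 and MT-ND6 -0.226. That method fixes the values at each rank by construction. By mean TPM over all libraries, mitochondrially encoded genes hold 5 of the top 6 ranks. Of the called genes that changed sign, MT-CO3 ranks 6, and MT-ND4, MT-ND6, MT-TN, MT-ND5 and MT-ND2 rank 11, 14, 18, 29 and 30. Whether rank bears on the changes of sign was not tested. Quantile normalization moved the median of all genes by 0.31 in the last pair and -0.21 in SNU2535 over NCI-H3122. Leaving out a library in SNU2535 gave ranges of -0.077 to 0.135 (MT-ND1), -0.0811 to 0.123 (MT-ND2), -0.158 to 0.0398 (MT-ATP8), -0.0191 to 0.217 (MT-ATP6), -0.014 to 0.121 (MT-CO3), -0.027 to 0.0905 (MT-ND3), -0.0626 to 0.207 (MT-ND5), -0.052 to 0.169 (MT-ND6) and -0.0673 to 0.125 (MT-CYB). In NCI-H3122 the ranges were -0.0099 to 0.23 (MT-ND1), -0.0449 to 0.195 (MT-ND2), -0.0513 to 0.184 (MT-ATP8), -0.0281 to 0.121 (MT-ND3) and -0.0325 to 0.294 (MT-ND6). Depth limits the 15 tRNA genes with 0 to 65 reads a library.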
